A study of Mus musculus with 847 samples.

Results

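The interneuron marker genes Sst, Vip, Cck, Pvalb, Calb2, Lhx6 and Reln are 7 of the 21076 genes of the count table. They were chosen by name, with earlier results of these data known. Their levels were followed across 15 brain regions and 7 ages, with most detail for 3 cortical areas and 2 parts of the hippocampus. The study sequenced bulk RNA of dissected tissue from 59 C57BL/6JN mice, 25 females and 34 males, each mouse giving at most 1 library per region. Each of the ages 3, 12, 15 and 18 months was represented by 10 mice, 5 of each sex. The 21-month group had 1 male more (5 females, 6 males), and the 26-month and 28-month groups consisted of 5 and 3 males. No treatment or transgene is named in the labels, and the oldest ages are males only. The mouse numbers also split by age: mice of 12 and 26 months are numbered 1 to 15, those of 3, 15, 18 and 21 months 16 to 56, and those of 28 months 57 to 59. What these number sets mark is not given in the sources used here, so for ages in different sets a difference of age and a difference of set cannot be told apart. The cortical and hippocampal libraries numbered 281, with 59 of motor cortex, 56 of visual cortex, 51 of entorhinal cortex, 57 of anterior hippocampus and 58 of posterior hippocampus.

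Cortical and hippocampal interneurons are inhibitory neurons that release GABA within the local circuit. Those born in the medial ganglionic eminence depend on the transcription factor Lhx6 and go on to make the peptide somatostatin (Sst) or the calcium buffer parvalbumin (Pvalb). Those born in the caudal eminence include cells that make vasoactive intestinal peptide (Vip), calretinin (Calb2), cholecystokinin (Cck) or reelin (Reln). None of these genes is limited to interneurons: Pvalb is made by Purkinje cells, Calb2 by cerebellar granule cells and by thalamic neurons, Reln by cerebellar granule cells and superficial entorhinal neurons, and Cck by many pyramidal cells.

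Read totals per library ran from 481444 to 26756735 with a median of 6716032, and in the cortical and hippocampal regions from 1129749 to 26756735. Levels are given as CPM (counts per 1000000 reads) with library sizes scaled by TMM factors, and ± marks the SD over mice. A library was compared with the mean profile of every region over 2000 genes, and 16 were nearest to a region other than the labelled one, 12 of them cortical or hippocampal. The library labelled entorhinal cortex of mouse 52, a female of 21 months, correlated at r = 0.93 with medulla and at 0.599 with entorhinal cortex. In it Vip was at 0.653 CPM and Cck at 16.5, below every other entorhinal library, and Calb2 at 193, above every other. The anterior hippocampus library of mouse 5, a male of 26 months, was nearest to choroid plexus, and 8 posterior hippocampus libraries were nearest to anterior hippocampus. For many of the levels, correlations and calls that include these libraries, the value without them is given as well.

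A promoter of 6 members is in the RefSeq table for GRCm38.p6, 9 promoters in all, each reaching from 250 bases before the transcription start to 50 after it. Calb2 is the member without an entry. Those of the neuropeptide genes are shown because the levels of Sst and Vip, and of Sst and Cck, moved together across libraries in some of the regions described further on. Capitals mark the cyclic AMP response element TGACGTCA (CRE), its shorter core TGACG on either strand, or the TATA box TATAAA.
Sst, chr16:23890795-23891094, minus strand: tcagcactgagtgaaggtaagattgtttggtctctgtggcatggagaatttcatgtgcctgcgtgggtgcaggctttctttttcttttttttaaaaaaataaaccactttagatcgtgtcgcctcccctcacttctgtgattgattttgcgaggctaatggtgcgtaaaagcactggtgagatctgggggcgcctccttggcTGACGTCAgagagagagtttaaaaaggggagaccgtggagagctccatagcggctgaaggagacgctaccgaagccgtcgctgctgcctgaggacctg
Vip, chr10:5638968-5639267, plus strand: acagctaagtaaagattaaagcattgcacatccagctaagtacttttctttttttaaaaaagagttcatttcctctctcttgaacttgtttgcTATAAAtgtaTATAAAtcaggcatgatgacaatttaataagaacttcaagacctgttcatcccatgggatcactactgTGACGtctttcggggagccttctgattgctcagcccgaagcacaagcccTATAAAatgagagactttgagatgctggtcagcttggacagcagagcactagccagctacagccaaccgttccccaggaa
Cck, chr9:121495645-121495944, minus strand: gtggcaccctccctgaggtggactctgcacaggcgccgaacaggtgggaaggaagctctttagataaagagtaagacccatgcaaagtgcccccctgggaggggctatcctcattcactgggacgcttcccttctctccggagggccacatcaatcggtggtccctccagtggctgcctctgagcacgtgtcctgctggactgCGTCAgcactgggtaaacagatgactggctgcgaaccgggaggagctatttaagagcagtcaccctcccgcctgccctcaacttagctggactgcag
The whole CRE lay from base -48 to base -41 of Sst, counted from the start. On both strands the same 8 letters occur in 588 of 32851 mouse promoters of this length, 1.79%. Vip held the core from -79 to -75 and TATAAA in 3 places, the nearest from -30 to -25, and Cck held the core from -47 to -43. The core, which is also part of every CRE, occurs in 20.8% of these promoters and TATAAA in 13.6%. Neither promoter of Pvalb held any of these motifs, and the promoter of Reln held 6 GC boxes (GGGCGG, in 35.7% of promoters). These matches are descriptions of letters and no binding was measured.

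In GENCODE coordinates on GRCm38, Sst (ENSMUSG00000004366) lies at chr16:23889573-23890958, Vip at chr10:5639218-5647617, Cck at chr9:121489824-121495694, Pvalb at chr15:78191114-78206400, Calb2 at chr8:110137502-110168210, Lhx6 at chr2:36081953-36105408 and Reln at chr5:21884454-22344702. All are protein-coding, and counts cover their exons. The sequencing did not keep strand, so reads of overlapping genes cannot be separated. Reln shares 246 exon bases with the antisense gene Gm10475 out of its 23738, and Lhx6 shares 104 of 4805 with Gm27953. The other 5 members overlap no annotated gene.

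Region set the level of every member far more than age did. Between 85.8% (Vip) and 93.1% (Lhx6) of the variance of a member's log2 level lay between regions. A straight line in age, fitted in each region, took between 0.118% (Lhx6) and 0.72% (Cck) of the same total. Of the variance within regions this was between 1.70% (Lhx6) and 5.83% (Cck). A line fitted where nothing changes also takes some share, so the lowest of these values need not mark any change. In the following, regions are set in order by mean log2 level, and neighbours are said to be apart only where the gap exceeds the larger of their SDs. Since these are bulk samples, fewer cells of a type and less RNA per cell cannot be told apart in any of these values.

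Somatostatin, the peptide of dendrite-targeting interneurons, was highest in entorhinal cortex, with Sst between 72.85 and 546.7 CPM around a median of 307.7 over 51 mice. The lowest value was that of mouse 52. Without this mouse the lowest was 85.8 CPM and the median 310 (n = 50). Motor cortex followed with 191.2, 230.8 and 282.3 CPM (lowest, median and highest of 59), then choroid plexus, caudate putamen and visual cortex, where the mean was 200.6 ± 30.6 CPM (n = 56). From entorhinal cortex down to the subventricular zone, the ninth in order, no region was apart from the next. Posterior hippocampus had 177 ± 42.8 CPM (n = 58; 186 ± 38.4 in 50 without the libraries nearest to another region). Anterior hippocampus, at 109.7 ± 39.5 (n = 57; 107 ± 37.3 in 54), followed the subventricular zone and was apart from it. Below pons there was a wide gap to olfactory bulb at 12.1 ± 4.83 CPM (n = 58), and thalamus and cerebellum came last, with medians of 6.54 and 1.70 CPM.

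Vip, the peptide of interneurons that mostly inhibit other interneurons, was highest in visual cortex, at 107.2, 154.7 and 199.6 CPM (lowest, median and highest of 56), and this was apart from motor cortex, at 82.9, 109.6 and 155.1 (59). Entorhinal cortex had 67.2 ± 19.3 CPM (n = 51; 68.5 ± 16.9 without mouse 52) and olfactory bulb 60.2 ± 7.72 (n = 58). Posterior hippocampus, at 46.6 ± 12.4 CPM (n = 58; 50.1 ± 9.34 in 50 without the libraries nearest to another region), was apart from anterior hippocampus at 19.4 ± 7.46 (n = 57). Vip had no read in 33 of 59 thalamus libraries and in 34 of 58 cerebellum libraries. There 3 reads would have been between 0.158 and 5.68 CPM, which limits how low the level can be called.

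Cck was highest in motor cortex, at 407.1, 476.5 and 558.0 CPM (59 mice), apart from visual cortex at 314.0, 378.3 and 488.9 (56), which was apart in turn from posterior hippocampus at 276.5 ± 26.7 (n = 58). Thalamus, a region with few interneurons in the mouse, held 267 ± 63.8 CPM of Cck (n = 59), and was not apart from entorhinal cortex at 275 ± 88.4 (n = 51; 280.0 ± 81.2 without mouse 52) or anterior hippocampus at 244 ± 61.7 (n = 57). The lowest 5 regions, from medulla to pons, had means between 14.8 and 19.0 CPM.

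Among the calcium-binding proteins, Pvalb was highest in cerebellum at 421.1, 535.4 and 643.0 CPM (58 mice), a region whose Purkinje cells make it, and pons and medulla came next. Motor cortex had 96.3 ± 13.1 CPM (n = 59) and visual cortex 66.0 ± 12.1 (n = 56). Both hippocampal parts were near one another, at 35.2 ± 18.6 CPM in posterior (n = 58; 38.1 ± 18.3 in 50 without those libraries) and 31.3 ± 7.21 in anterior (n = 57). Entorhinal cortex spread most among the cortical areas, from 0.802 to 116.1 CPM around a median of 13.4 (mean 23.4 ± 28.2, or 21.8 ± 26.0 without mouse 52), so that its highest libraries reached motor cortex levels and its lowest were almost without Pvalb.

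Calb2 had the opposite order in cortex. It was highest in olfactory bulb, where periglomerular and granule interneurons make it, at 486.9, 574.8 and 658.2 CPM (58 mice), followed by cerebellum and thalamus, and in thalamus it spread from 67.2 to 1032 CPM. Posterior hippocampus had 76.85 ± 36.6 CPM (n = 58; 80.3 ± 35.7 in 50), entorhinal cortex 64.0 ± 34.8 (n = 51; 61.4 ± 29.8 without mouse 52) and anterior hippocampus 37.4 ± 23.4 (n = 57). Visual cortex, at 16.6 ± 3.64 CPM (n = 56), was apart from motor cortex at 9.85 ± 2.497 (n = 59), and only corpus callosum and caudate putamen were lower.

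The transcription factor Lhx6 was highest in caudate putamen at 30.1 ± 4.10 CPM (n = 58), followed by entorhinal cortex at 27.4 ± 6.35 (n = 51; 28.0 ± 5.13 without mouse 52). Motor cortex (21.25 ± 2.31, n = 59), posterior hippocampus (20.7 ± 3.39, n = 58) and visual cortex (20.6 ± 2.51, n = 56) were level with each other, and anterior hippocampus was lower at 14.1 ± 2.80 (n = 57). From hypothalamus to thalamus there was a gap larger than either spread, and in olfactory bulb, pons, medulla and cerebellum the means were under 0.5 CPM with 15 to 24 libraries at 0 reads. Lhx6 was not tested for age in cerebellum, medulla or olfactory bulb, since too few libraries had enough reads.

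Reln, which encodes the extracellular protein that guides neuronal positioning, was highest in cerebellum at 149.9 ± 18.4 CPM (n = 58), then in olfactory bulb at 103.9 ± 9.30 (n = 58). Entorhinal cortex had 54.8 ± 18.5 CPM (n = 51; 55.7 ± 17.4 without mouse 52), above visual cortex at 31.1 ± 3.51 (n = 56) and motor cortex at 22.6 ± 3.07 (n = 59). Posterior hippocampus, at 21.75 ± 4.97 CPM (n = 58), was apart from anterior hippocampus at 17.1 ± 3.45 (n = 57), and thalamus was lowest at 3.92 ± 3.09 (n = 59).

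**Figure D1:**
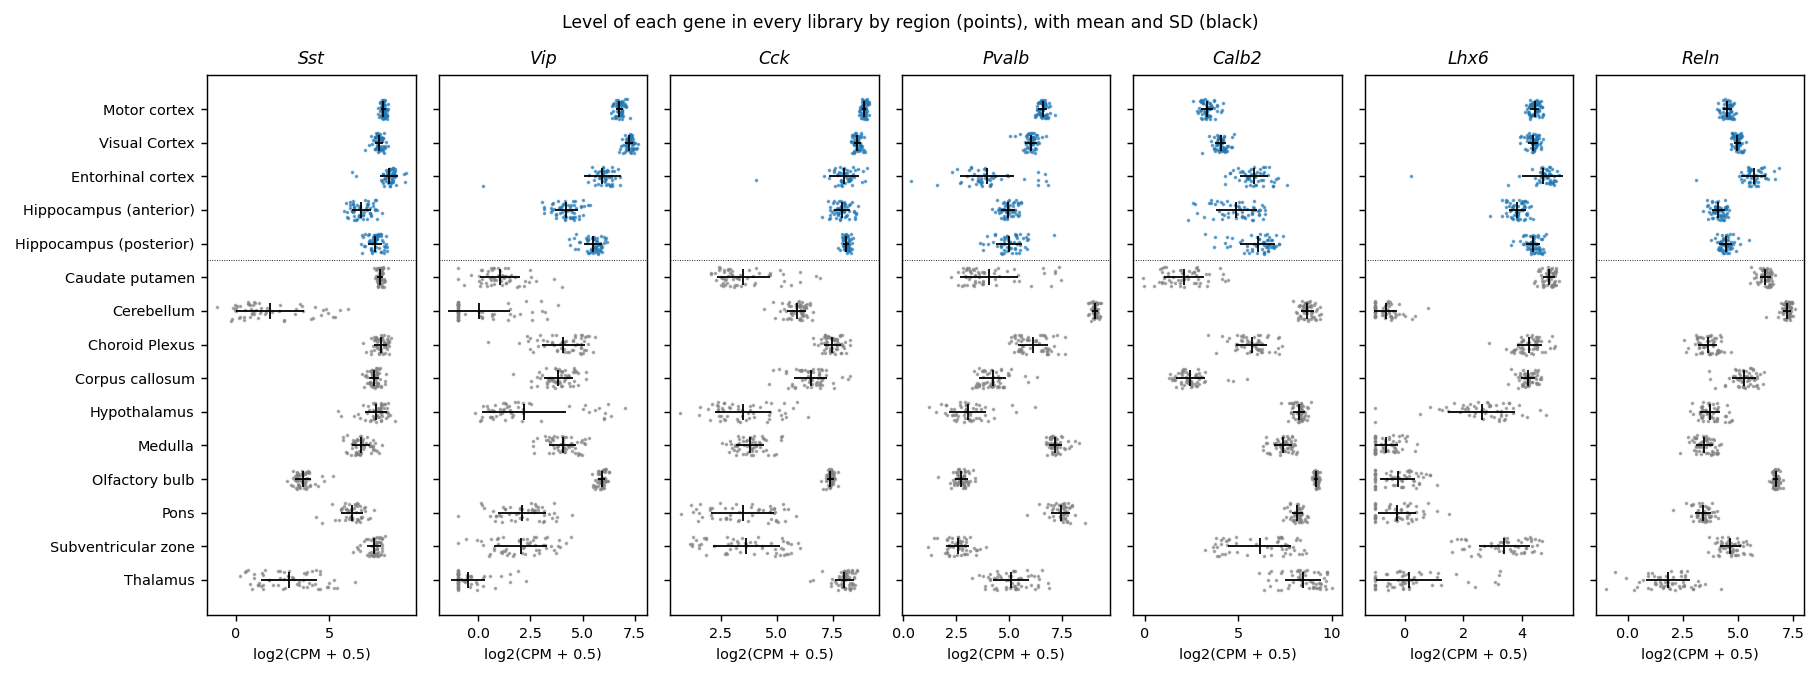
Each panel plots 1 gene: the x axis is log2(CPM + 0.5), the y axis the 15 regions, and each point 1 library, blue for the cortical and hippocampal regions above the dotted line and grey for the other 10, with the mean and SD in black. Vip and Cck are highest in visual and motor cortex, Pvalb and Reln in cerebellum and Calb2 in olfactory bulb, and the lowest means are in cerebellum for Sst and Lhx6 and in thalamus for Vip.

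Neighbouring areas were then compared directly with edgeR's quasi-likelihood test, with age and sex in the model and p-values adjusted over all genes. Most genes differ in such contrasts, so a call for a member says little beyond its size. Between posterior and anterior hippocampus 57% of all genes tested passed, and 6 of the 7 members did, all higher in posterior. Vip was 2.32-fold higher (log2 difference 1.21 ± 0.08 SE, adjusted p = 2.28e-25) and Calb2 2.09-fold (1.07 ± 0.16, adjusted p = 1.40e-08). Sst differed by 0.67 ± 0.08, Lhx6 by 0.55 ± 0.05, Reln by 0.32 ± 0.05 and Cck by 0.18 ± 0.05 on the log2 scale. Pvalb, at 0.15 ± 0.09 (adjusted p = 0.176), did not pass with all libraries. Without the libraries nearest to another region, here 8 posterior and 3 anterior, its difference was 0.27 (adjusted p = 0.00562). All 7 members then passed. The 8 posterior ones were left out because they were nearest to anterior, and they held 11.8 to 24.5 CPM of Pvalb. Such a choice can by itself widen the difference between these parts, so this call is no separate support.

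Visual and motor cortex separated the members into groups. Visual cortex was higher in Calb2 (0.75 ± 0.11 SE), Vip (0.47 ± 0.07) and Reln (0.47 ± 0.06), and lower in Pvalb (-0.54 ± 0.13), Cck (-0.31 ± 0.06) and Sst (-0.23 ± 0.05). Each passed with an adjusted p of at most 7.997e-05, beside 58.7% of all genes, and Lhx6 did not (-0.05 ± 0.06, adjusted p = 0.529).

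Entorhinal cortex stood farthest from motor cortex. There 80.2% of all genes passed and all 7 members did. Calb2 was 6.65-fold higher (2.73 ± 0.10) and Reln 2.43-fold higher (1.28 ± 0.06), with Lhx6 (0.40 ± 0.06) and Sst (0.39 ± 0.05) also higher. Pvalb was 4.07-fold lower (-2.02 ± 0.14), Cck 1.73-fold (-0.79 ± 0.06) and Vip 1.63-fold (-0.71 ± 0.07). These calls were the same without mouse 52 and with the mouse as a block.

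**Figure D2:**
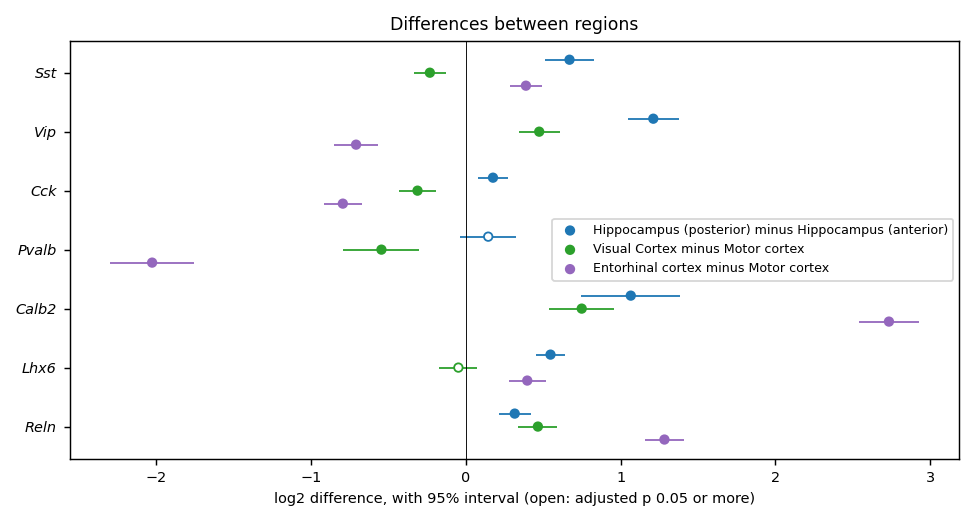
The x axis gives the log2 difference between 2 regions with its 95% interval, the y axis the 7 genes, and the colours the 3 contrasts, with open points where the adjusted p was 0.05 or more. Calb2 and Reln lie to the right in all 3 contrasts, Pvalb lies to the left in both cortical ones, and the widest differences are those of entorhinal against motor cortex.

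Within a region, several members moved with the markers of other cell types, summed per library from lists that leave out the member itself. Only the lists with the strongest correlation were kept for each member and region, and the pairs given here are some of those. Such correlations across mice are descriptions: the points share the dissection, and a larger share of 1 tissue lowers the CPM of all others. In anterior hippocampus Calb2 moved with thalamic markers (Tcf7l2, Lef1, Prkcd, Slc17a6, Plekhg1; r = 0.90, Spearman rho = 0.93, n = 57; r = 0.90 without 3 libraries nearest to another region). The 5 libraries with the lowest thalamic sum, 79.9 to 90.2 CPM, had 4.41 to 21.1 CPM of Calb2, and the 5 with the highest, 606 to 854 CPM, had 57.8 to 86.5. In the same libraries Sst ran against the thalamic sum (r = -0.78), as did Vip (r = -0.80).

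Pvalb in posterior hippocampus ran against the glutamatergic list (r = -0.87, n = 58; -0.83 without 8 libraries nearest to anterior hippocampus). The 5 libraries lowest in that list had 38.5 to 141.2 CPM of Pvalb and the 5 highest 11.8 to 24.3. Pvalb also moved there with the markers of striatal projection neurons (r = 0.73, n = 58). In anterior hippocampus Pvalb moved with the oligodendrocyte list (r = 0.72, n = 57), and in entorhinal cortex it did as well (r = 0.72, n = 51; 0.68 without mouse 52). There the oligodendrocyte sum itself spread from 155 to 20490 CPM, the highest being that of mouse 52 and the next 15410, and the 5 lowest libraries had 0.802 to 11.0 CPM of Pvalb against 10.3 to 116.1 in the 5 highest, of which mouse 52 is 1, at 104 CPM. In motor cortex Vip ran against the oligodendrocyte sum (r = -0.78, n = 59), from 117.2 to 155.1 CPM in the 5 libraries lowest in the list to 84.6 to 96.1 in the 5 highest. Cck in entorhinal cortex followed the glutamatergic list (r = 0.91, n = 51; 0.75 without mouse 52), and in anterior hippocampus too (r = 0.77, n = 57). How much of a member's spread within these regions comes from the tissue mix was not tested.

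**Figure D3:**
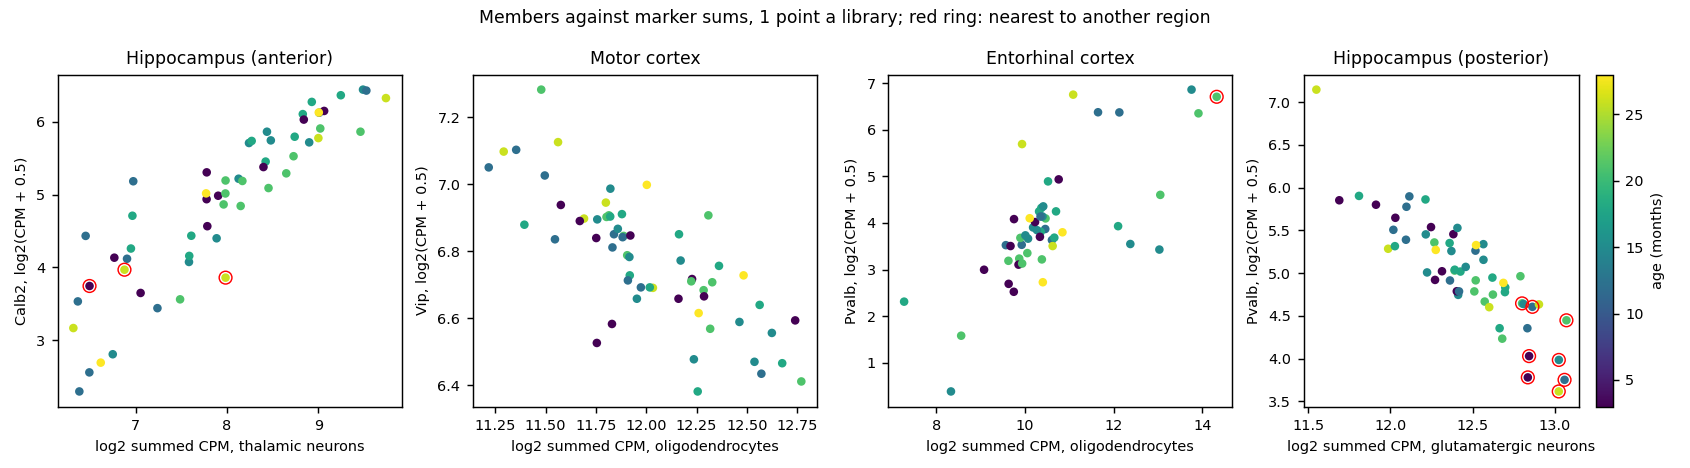
Each panel plots a member, as log2(CPM + 0.5), on the y axis against the log2 summed CPM of a marker list on the x axis, with 1 point a library coloured by age in months and red rings on libraries nearest to another region. Calb2 climbs with thalamic markers in anterior hippocampus and Pvalb with oligodendrocyte markers in entorhinal cortex, while Vip in motor cortex and Pvalb in posterior hippocampus decline along their lists.

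The members moved with each other in some regions and not in others. Sst and Vip correlated at r = 0.69 in anterior hippocampus (n = 57; 0.67 without the libraries nearest to another region) and at 0.70 in entorhinal cortex (n = 51; 0.49 without mouse 52), but at -0.38 in motor cortex and -0.30 in visual cortex. In posterior hippocampus the same pair was at 0.62 (n = 58) and at 0.29 in the 50 libraries left without the 8 nearest to anterior hippocampus. Sst and Cck were at 0.69 in visual cortex (n = 56), and Vip and Cck at 0.94 in entorhinal cortex (0.84 without mouse 52) but between 0.02 and 0.23 in the other 4 regions. Pooled values lean on the libraries that stand apart. With region means taken off, Vip and Lhx6 were at 0.67 over the 281 libraries and at 0.26 over the 269 left without the 12 libraries nearest to another region. Pvalb and Sst were at 0.05 over the 281 and 0.07 over the 269.

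Genes with the most similar pattern were ranked for the members over the 281 libraries less their region means, leaving out genes that averaged under 5 CPM. These are descriptions over libraries that share dissection and depth, and each value is followed by that over the 269 libraries. Sst was most like Crhbp (r = 0.75, then 0.68), followed by Pde1a, Rab3b, Syt5 and Cort. For Pvalb the nearest gene was Syt2 (0.79, then 0.76), followed by Sept4, Stac2, Vamp1 and Scn4b, and for Cck it was Ctxn1 (0.85, then 0.73), followed by Celf5, Ptms, Itpka and Schip1. The likeness of Vip to Fam81a (0.79, then 0.49) was much lower without the 12 libraries. Calb2 was nearest to Zcchc12 (0.58, then 0.55) and Reln to Slc7a11 (0.55, then 0.45). Over the 15 region means the leading genes were others, with Lhx6 nearest to Slc7a4 (0.96), Reln to Cebpz (0.94), Cck to Hivep3 (0.93), Sst to Arnt2 (0.92), Vip to Prss12 (0.92), Pvalb to Yipf3 (0.91) and Calb2 to Kansl3 (0.91).

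Change with age was followed first in cortex and hippocampus. Change was tested as a straight line in months beside sex, with edgeR's quasi-likelihood test and adjustment over all genes of a region, and is given below as the fitted log2 change over the 25 months from 3 to 28. Of 35 pairs of member and region, 3 passed: Cck fell in motor and in visual cortex, and Calb2 rose in visual cortex. Over all genes tested, the share that passed was 17.3% in motor cortex, 10.7% in visual cortex, 0.227% in entorhinal cortex, 11.4% in anterior hippocampus and 6.82% in posterior hippocampus. Beside these shares, 3 of 35 says little about these members in particular.

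Cck in motor cortex was between 448.7 and 558.0 CPM at 3 months (median 518.9, n = 10), and the 8 mice of 26 and 28 months were between 431.6 and 478.8. The groups overlap, but all 8 old mice lay below the median of the young. Means were 521 ± 32.1 CPM at 3 months, 477 ± 41.7 at 12, 467 ± 20.9 at 15, 473 ± 30.7 at 18, 474 ± 29.0 at 21 (n = 11), 452.5 ± 18.0 at 26 (n = 5) and 458 ± 20.6 at 28 (n = 3), with 10 mice at the ages not given. The main step was between 3 and 12 months, and the fitted change was -0.17 ± 0.04 (SE, adjusted p = 0.00178). It kept its sign but missed the threshold in males alone (adjusted p = 0.0755).

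In visual cortex Cck was between 395.3 and 479.6 CPM at 3 months (n = 10), and every 12-month mouse was lower, between 327.8 and 385.5 (n = 8). At 28 months the 3 mice had 328.7, 367.9 and 383.6 CPM, and the 4 mice of 26 months lay between 328.4 and 447.6. Of the 7 mice of 26 and 28 months, 6 were below the 3-month median and 1 was above it. The 15-month mean, 394 ± 39.8 CPM (n = 10), lay between those of 3 months (437 ± 28.7) and 12 months (354 ± 15.9), so the decline had no even course. The fitted change was -0.23 ± 0.06 (adjusted p = 0.0143).

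Calb2 in visual cortex was low at 3 months, at 7.83, 14.1 and 15.3 CPM (lowest, median and highest of 10), and all 7 mice of 26 and 28 months lay above that highest value, between 15.65 and 27.3. The mean of 12-month mice was already 18.8 ± 3.95 CPM (n = 8), while those of 18 and 21 months were 15.8 ± 2.11 (n = 10) and 15.6 ± 2.07 (n = 11), and 26-month mice had 20.9 ± 4.58 (n = 4). The fitted change was 0.41 ± 0.11 (adjusted p = 0.00948). In mice numbered 16 to 56 alone, which are those of 3, 15, 18 and 21 months, it had the same sign with an adjusted p of 0.0959. Summed blood markers in visual cortex also moved with age, with all 4 haemoglobin genes passing upward, and their part in this result was not tested. The thalamic list, with Calb2 itself counted in it, had medians between 110.0 and 130.7 CPM over the 7 ages here. None of its other genes passed, and the part of thalamic tissue in the Calb2 values was not tested either.

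**Figure D4:**
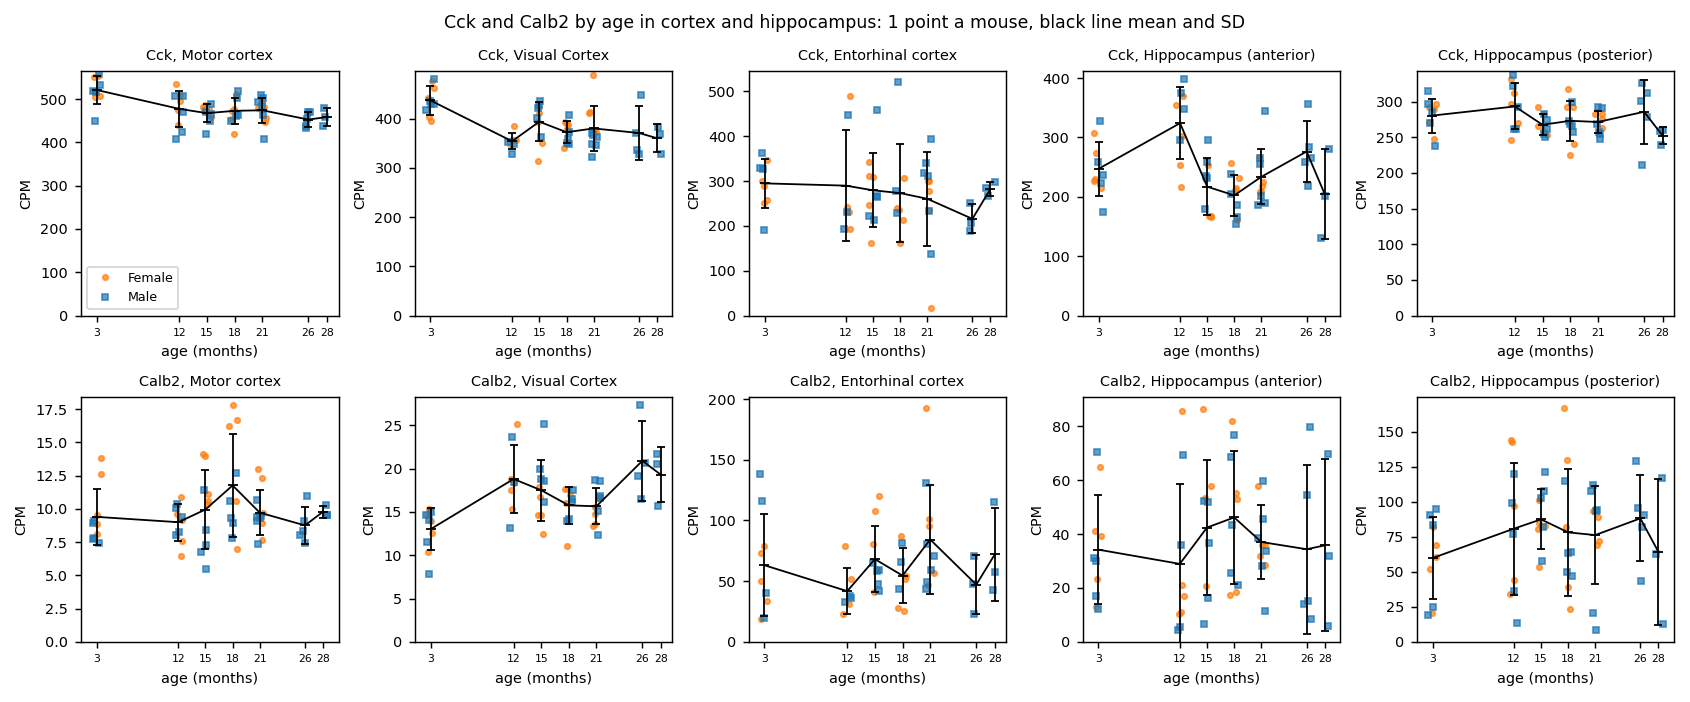
Cck (upper row) and Calb2 (lower row) in CPM on a y axis from 0, against age in months, in the 5 cortical and hippocampal regions, with 1 point a mouse (orange females, blue males) and the mean and SD in black. In visual cortex the Calb2 values of 26 and 28 months all lie above the 3-month values, and in motor and visual cortex Cck is highest at 3 months, whereas the hippocampal panels scatter without a steady course.

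All other members in these regions stayed short of the threshold. Cck had a slope below 0 in all 5 regions and Pvalb and Calb2 above 0 in all 5, but the remaining slopes did not pass. The nearest was Pvalb in anterior hippocampus, with means from 28.3 ± 7.15 CPM at 3 months (n = 10) to 37.65 ± 10.1 at 28 (n = 3) and a change of 0.39 ± 0.14 (adjusted p = 0.057). It passed with read total and genes detected as covariates (adjusted p = 0.0462) and without any 1 of 7 single mice, and oligodendrocyte markers, with which Pvalb moved in these libraries, passed upward with age for 3 of 5 genes. Sst in motor cortex was 230.2 ± 19.2 CPM at 3 months (n = 10) and 255 ± 21.4 at 28 (n = 3), a change of 0.12 ± 0.06 (adjusted p = 0.132). Its course was uneven, with means below that of 3 months at 12 (219 ± 12.8, n = 10) and 26 months (223.5 ± 11.4, n = 5). The means of 15, 18 and 21 months lay between 240.3 and 244.6 CPM. In entorhinal cortex Pvalb had the widest interval, with a change of 1.14 ± 0.67 (adjusted p = 0.601). Vip, Lhx6 and Reln had changes between -0.28 and 0.11 (log2) in the 5 regions, with adjusted p-values of at least 0.126.

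The slopes themselves were compared between the 5 regions in a joint fit, through the age by region terms. None of the 7 members passed (adjusted p from 0.632 to 0.981), beside 1.54% of all genes. The slope of Cck in motor and visual cortex was not shown to differ from its course elsewhere. None had an unadjusted p under 0.05 either, the lowest being 0.183 for Pvalb.

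Ages were also compared as a factor, which picks up changes that follow no line. Of the 35 pairs 5 passed, where the share over all genes was 11.5% in motor cortex, 6.78% in visual cortex, 1.19% in entorhinal cortex, 18.8% in anterior hippocampus and 2.44% in posterior hippocampus. These were Cck in motor (adjusted p = 0.0277) and visual cortex (0.00829), Calb2 in visual cortex (0.0117), and Cck (0.00163) and Reln (0.0140) in anterior hippocampus. Calb2 in visual cortex did not pass in mice numbered 16 to 56 alone, which leave out 12, 26 and 28 months (adjusted p = 0.0754). Cck in anterior hippocampus was highest at 12 months, 324 ± 60.7 CPM (n = 9), against 247 ± 45.4 at 3 months (n = 10) and 202.5 ± 35.0 at 18 (n = 10). It did not pass in mice numbered 16 to 56 alone, which leave out the 12-month group (adjusted p = 0.327). Reln there was lowest at 26 months, 13.3 ± 2.24 CPM (n = 5), between 16.0 ± 3.29 at 21 months (n = 11) and 20.0 ± 3.77 at 28 (n = 3). Without the libraries nearest to another region, which include 2 of those 5 mice, Reln did not pass (adjusted p = 0.0653). Nor did it pass in mice numbered 16 to 56 alone, which leave out the 26-month group (adjusted p = 0.175). The choroid plexus sum in the 26-month libraries ran from 11.4 to 4492 CPM, and its part in the Reln values was not tested.

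Over all 15 regions, 9 of the 102 pairs tested passed for age, 5 upward and 4 downward, and all 4 that fell were Cck. The share over all genes was 13.9% in caudate putamen, 18.9% in cerebellum, 20.8% in choroid plexus, 18.6% in corpus callosum, 7.33% in hypothalamus, 10.8% in medulla, 16.8% in olfactory bulb, 5.7% in pons, 8.52% in the subventricular zone and 4.79% in thalamus. Cck had a slope below 0 in 13 of 15 regions and Sst in 10 of 15, with no Sst slope past the threshold (adjusted p from 0.06 to 0.952). Pvalb had a slope above 0 in 11 of 15.

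The lowest adjusted p of any member for age was that of Vip in olfactory bulb, where it rose. It ran from 43.5 to 61.4 CPM at 3 months (median 49.8, n = 10), and the 10 mice of 21 months from 61.2 to 77.7, nearly without overlap. Means were 50.5 ± 5.06 CPM at 3 months, 61.4 ± 4.91 at 12, 58.1 ± 4.79 at 15, 58.7 ± 6.94 at 18, 67.0 ± 4.95 at 21, 67.3 ± 4.43 at 26 (n = 5) and 66.5 ± 8.74 at 28 (n = 3). The change was 0.40 ± 0.06 (adjusted p = 3.99e-06), and it passed under all 6 alternatives tried. Pvalb, at a far lower level, also rose there, from 5.52 ± 0.608 CPM at 3 months (n = 10) to 7.29 ± 0.651 at 26 (n = 5), a change of 0.38 ± 0.12 (adjusted p = 0.0237).

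Cck fell in choroid plexus libraries, from 217.9 ± 65.1 CPM at 3 months (n = 10) to 160.3 ± 26.2 at 28 (n = 3), a change of -0.60 ± 0.15 (adjusted p = 0.00302). Those libraries held neuronal tissue: the glutamatergic markers summed to a median of 3170 CPM beside 5823 for the choroid plexus markers, and of 8 glutamatergic genes Camk2a fell with age and none rose. Their part in the Cck value was not tested. In medulla Cck fell by 0.91 ± 0.28 (log2, adjusted p = 0.027), from 15.8 ± 5.11 CPM at 3 months (n = 10) to 6.95 ± 2.20 at 28 (n = 3), although 12-month mice were highest at 24.6 ± 8.89 (n = 9). Reln rose in hypothalamus by 0.67 ± 0.22 (adjusted p = 0.0422), from 11.0 ± 2.99 CPM at 3 months (n = 9) to 16.0 and 16.2 in the 2 mice of 28 months. Lhx6 rose in caudate putamen by 0.25 ± 0.09 (adjusted p = 0.0394), from 26.9 ± 2.85 CPM at 3 months (n = 9) to 30.7 ± 3.59 at 12 (n = 10), with no later mean above 31.7. These 4 calls were lost in males alone, and those of Cck in medulla and Reln in hypothalamus also in mice numbered 16 to 56. The call of Lhx6 was lost as well with no filter on low counts (adjusted p = 0.0559).

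**Figure D5:**
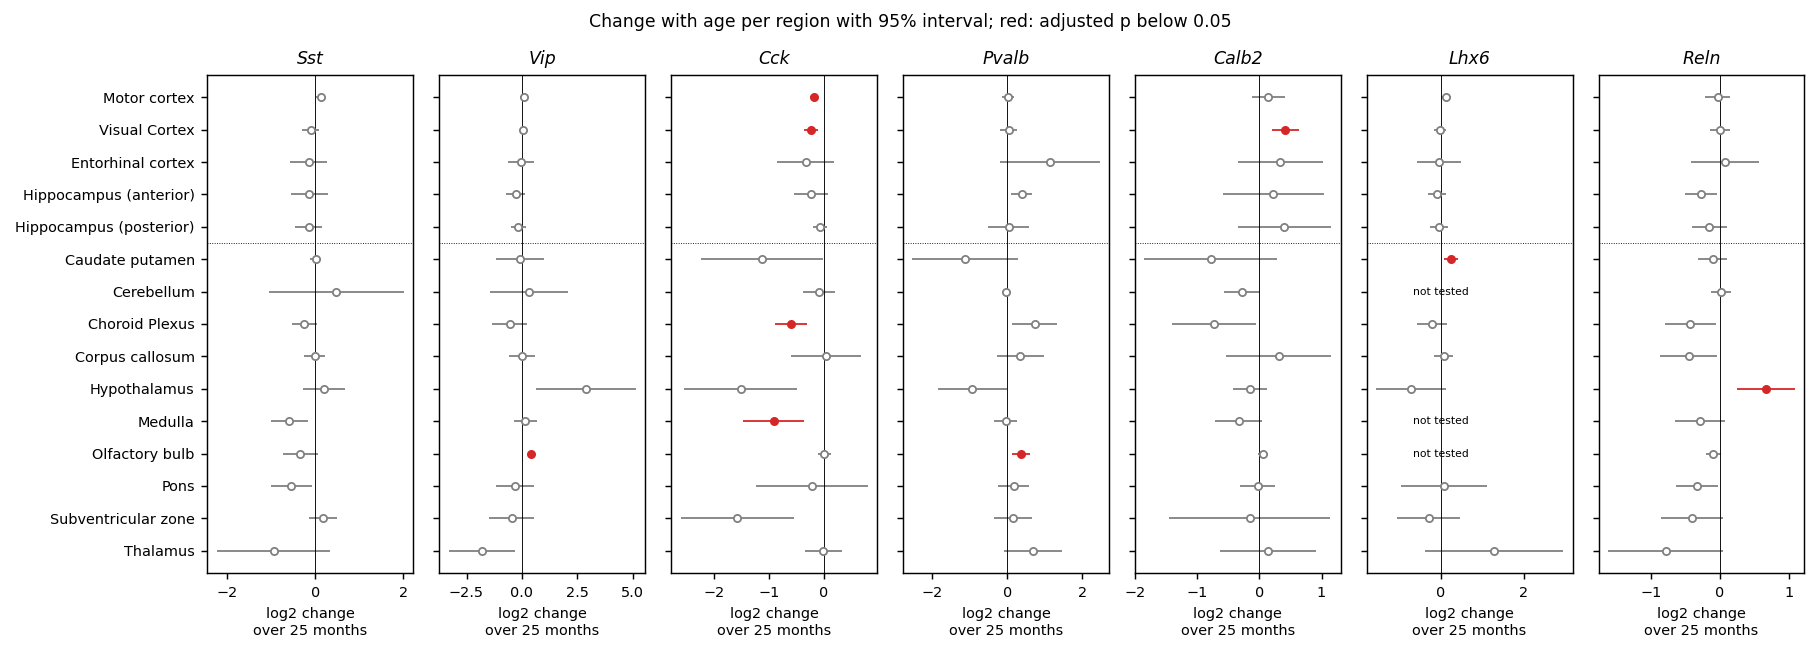
For each gene, the x axis gives the fitted log2 change over 25 months with its 95% interval and the y axis the 15 regions, with red points where the adjusted p was below 0.05. Red points are few, 3 of them above the dotted line in the cortical regions, and Cck lies left of 0 in 13 of 15 regions.

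Females and males were compared at 3 to 21 months, where both exist, with age as a factor. Of all gene and region pairs tested 3.01% passed, and of the members only Calb2 did, in 2 regions with opposite signs. In medulla, where 24.6% of genes passed, Calb2 was higher in males by 0.33 ± 0.11 (adjusted p = 0.0284), at 134.7, 190.6 and 272.1 CPM (lowest, median and highest of 26) against 79.15, 150.3 and 277.3 in 24 females. In motor cortex, where 3.81% passed, it was lower in males by 0.29 ± 0.09 on the log2 scale (adjusted p = 0.0419), at 5.45, 9.01 and 12.7 CPM (26 males) against 6.42, 10.6 and 17.8 (25 females). The sexes overlapped widely in both regions. Among 12-month mice alone neither passed, and the motor cortex difference there was 0.05 toward males (adjusted p = 0.982).

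Other genes of interneurons were followed through lists of lineage, cell type and receptor genes, whose counts stand beside a share over all genes of 17.3% in motor cortex, 10.7% in visual cortex, 11.4% in anterior and 6.82% in posterior hippocampus. Of 6 genes of the medial eminence lineage that were tested in motor cortex, Npas1 (0.28 ± 0.09) and Tox2 (0.25 ± 0.06) rose. Of 6 genes of the caudal lineage Prox1 (0.35 ± 0.11), Adarb2 (0.26 ± 0.08) and the serotonin receptor Htr3a (0.46 ± 0.13) rose, and the median slope of that list was 0.0124 per month beside -3.77e-05 for all genes. Among 9 genes of somatostatin cells, Crhbp, which binds the stress peptide Crh, rose by 0.27 ± 0.06 (adjusted p = 0.000369) and the peptide Cort by 0.34 ± 0.10, and none fell (median slope 0.00622), while Sst itself did not pass. None of the 9 genes of parvalbumin cells passed in either direction, with a median slope of 0.00333. Sncg rose (0.92 ± 0.22) as 1 of 7 genes of Vip and Cck cells, and Lamp5, of neurogliaform cells, fell by 0.21 ± 0.07 on the log2 scale.

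In visual cortex Tox2 (0.29 ± 0.09), Htr3a (0.48 ± 0.13), the opioid peptide gene Pdyn (0.22 ± 0.07) and the tachykinin Tac2 (0.39 ± 0.11) rose, and Npy, made by many somatostatin cells, fell by 0.30 ± 0.10. No pan-GABAergic or parvalbumin cell gene passed, with median slopes of 0.00222 and 0.00388 per month beside 0.000279 for all genes. In anterior hippocampus the medial lineage gene Sox6 fell by 0.27 ± 0.08, and in posterior hippocampus Sncg (0.90 ± 0.22) and the chemokine Cxcl14 (0.33 ± 0.06) rose. Entorhinal cortex gave no call in any of the interneuron, perineuronal net or receptor lists. With 0.227% of all genes called there, lists this short would seldom hold a call.

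Among genes of perineuronal nets, the matrix that wraps parvalbumin cells, Ncan, which encodes the proteoglycan neurocan, fell in motor cortex (-0.24 ± 0.04), visual cortex (-0.34 ± 0.07) and anterior hippocampus (-0.26 ± 0.06). The link protein Hapln1 fell in visual cortex by 0.38 ± 0.10. Hapln2, a link protein of myelinated axons, rose in motor cortex (0.84 ± 0.15), visual cortex (0.70 ± 0.13) and anterior hippocampus (1.05 ± 0.17), and Bcan rose in posterior hippocampus (0.21 ± 0.05). The net list thus had 1 gene up and 1 down of 8 in motor cortex and in anterior hippocampus, 1 up and 2 down in visual cortex, and 1 up and 0 down in posterior hippocampus.

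The receptor list holds receptors for the members' products, with Adcyap1r1, whose main ligand is not a member, and the reelin adaptor Dab1, not a receptor. Of its genes, 4 of 11 tested passed in anterior hippocampus, beside 11.4% of all genes. The median slope there was -0.00237 per month beside -4.82e-05 for all genes. The somatostatin receptors Sstr1 (-0.89 ± 0.16) and Sstr2 (-0.56 ± 0.11) fell and Sstr3 rose (0.51 ± 0.17), and the Vip receptor Vipr1 fell by 0.37 ± 0.10, while Sst and Vip did not pass in these libraries. In motor cortex Vipr1 fell by 0.22 ± 0.08 and the reelin receptor Vldlr by 0.14 ± 0.04, and Adcyap1r1 rose by 0.15 ± 0.05, as 3 of 11 tested. No gene of the receptor list passed in visual cortex (of 10), entorhinal cortex (of 12) or posterior hippocampus (of 11). The share over all genes there was 10.7%, 0.227% and 6.82%. In anterior hippocampus choroid plexus markers passed upward with age for 4 of 4 genes tested, microglial markers for 4 of 5 and oligodendrocyte markers for 3 of 5, and their part in the receptor values was not tested.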

How the data were processed

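Bulk tissue RNA was made into unstranded libraries with Smart-Seq2 and Nextera XT chemistry, per the labels' protocols. The submitters' processing notes name Trim Galore 0.3.7, STAR 2.5.3a, DESeq2 and the GRCm38 build, with no order or settings. The deposited values are raw read counts per gene, 1 column per library, as the authors counted them. Samples were grouped by the region, sex and age in the labels, and the labels' mouse numbers tie libraries of 1 animal across regions.

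Counts were tested with edgeR 4.0.16 in R 4.3.3 (TMM scaling, filterByExpr, quasi-likelihood test, Benjamini-Hochberg adjustment over all genes tested, threshold 0.05), after the scripts had been tested on simulated data. Age was a straight line in months beside sex within a region, or a factor. Levels are CPM, with 0.5 added before log2, computed in Python 3.11.15 with pandas 2.3.3 and numpy 2.4.6. Pairing comes from the mouse numbers: over genes, deviations of 2 regions correlated at a median of 0.0423 (56 mice, hippocampus), 0.0581 (56, motor and visual cortex) and 0.0475 (51, motor and entorhinal cortex) within a mouse, and at most at 0.000772 between mice. Named genes are the 7 members, genes of the lists and the 5 genes most like each member. Results that need 2 genes of the lists are not reported here. The members and lists were chosen with earlier results of these data known. Counting error alone limits low levels, and promoter sequences are from RefSeq.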

Additional observations from a re-analysis of the deposited data

Results flagged for a closer look

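Single mice stood apart from the rest of their region, sex and age group in 9 of 141 groups of 4 to 6 mice, 6.38%, over the 13 pairs of member and region with a call. A gap this wide for the highest or lowest mouse arises by chance in about 1 group in 20. In anterior hippocampus Cck was 254 CPM in mouse 38, a 15-month female, where the other 3 of her group were between 166 and 167, and 267 CPM in mouse 52, a 21-month female, where the others were between 208 and 225. In medulla Cck was 22.3 CPM in mouse 37 (female, 3 months, others 12.1 to 14.2), 15.1 in mouse 40 (female, 21 months, others 6.69 to 8.66), 35.6 in mouse 26 (male, 15 months, others 8.72 to 14.4) and 14.8 in mouse 16 (male, 21 months, others 7.06 to 9.47). In visual cortex Calb2 was lowest at 11.1 CPM in mouse 47 (female, 18 months, others 16.0 to 17.7). Cck there was 386 CPM in mouse 1 (female, 12 months, others 349 to 357) and 340.0 in mouse 39 (female, 18 months, others 379 to 394).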

How the results depend on the processing

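The count of 3 members called with age in the cortical and hippocampal regions ran from 2 to 4 under other scaling, filter, tool, covariate and sample choices, and from 3 to 4 with each of the 59 mice left out. Over 15 regions 9 calls became 5 in males alone and 12 with DESeq2 or with depth covariates. Among ages 5 calls became 2 in mice numbered 16 to 56, an alternative chosen after seeing the data, as was leaving out libraries nearest to another region. Between sexes 2 calls became 4 in mice 16 to 56 (Pvalb and Calb2 in caudate putamen were added) and 0 in 12-month mice, where the Calb2 difference in motor cortex turned to 0.0473; the cause was not tested. With the mouse as a replicate block, 0 members differed in age slope between regions and 6, 6 and 7 passed in the hippocampal, visual and entorhinal contrasts, and no call changed. Of 35 slopes 8 had another sign in males alone, 5 with depth covariates and 3 in mice 16 to 56. Males alone and mice 16 to 56 hold fewer samples, and the oldest ages have no females. Levels near 0 are limited by depth.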

Other observations

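Some members varied widely between libraries of regions outside cortex and hippocampus, and the pairs given here were picked after their values were seen, with a coefficient of variation over 80% and a mean of at least 5 CPM. The same limits also took in Sst in cerebellum, Pvalb in hypothalamus, Vip in pons and the subventricular zone, Calb2 in corpus callosum and caudate putamen, and Cck in caudate putamen, hypothalamus and pons, whose partners are not described. Sst in thalamus ran from 0.670 to 82.1 CPM around a median of 6.54, and the gene most like it over the 59 libraries was Gad1, the GABA-making enzyme (r = 0.82). Vip in hypothalamus, where it is made by the suprachiasmatic nucleus, ran from 0.386 to 132.8 CPM around a median of 2.31 and was most like Prokr2 (r = 0.78, n = 55). Calb2 in the subventricular zone ran from 8.88 to 397 CPM and was most like Ctxn3 (r = 0.98, n = 55), and Cck there ran from 1.67 to 65.4 CPM and was most like Slc30a3 (r = 0.90). Pvalb in caudate putamen ran from 4.32 to 174 CPM and was most like Vamp1 (r = 0.95, n = 58). These correlations describe libraries that share a dissection, and the part of the dissection in them was not tested.

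Ratios of members within a library moved little with age in motor cortex. In anterior hippocampus the log2 ratio of Pvalb to Gad1 changed by 0.34 ± 0.12 (SE) over 25 months (n = 57). That of Sst to Pvalb changed by -0.66 ± 0.27 and that of Pvalb to Vip by 0.78 ± 0.29. Spreads were wide: the Sst to Pvalb ratio was 1.99 ± 0.41 (SD, log2) at 3 months (n = 10). At 26 and 28 months it was 1.67 ± 0.83 (n = 8). These changes are descriptions without a test, and Pvalb moved with oligodendrocyte markers in those libraries.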
